A study of Mus musculus with 20 samples.

Results

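The change from normal LSK to normal MEP cells was described in the 6 wild-type (WT) libraries of a series of 20, chosen by their labels as the LSK and the MEP library of each of 3 WT mice. LSK cells (Lin- Sca1+ c-Kit+) are the bone marrow fraction that holds the hematopoietic stem cells and multipotent progenitors. MEP cells (megakaryocyte-erythroid progenitors, Lin- Sca1- Kit+ CD34- with low or no FcγRII/III) give rise to red cells and platelets. All 3 animals were C57BL/6 mice labelled wt, namely 245R (replicate 1), 251R (replicate 2) and 558Q (replicate 3), and both fractions were sorted from the bone marrow (BM) of each. The other 14 libraries came from Bcor-/-, Dnmt3a-/- and Bcor-/-Dnmt3a-/- mice, in which an induced Mx1-Cre acted on floxed genes. The paper reports that the loss of Dnmt3a was only partial in its Dnmt3a-/- mice. These libraries entered 1 alternative fit and were not otherwise compared here. The library labels of the WT mice read as those of the Dnmt3a-/- mice, with WT in the place of Cre. Beyond these labels, the sources used here do not say whether the WT mice carried the Cre. Nor do they say whether these mice had received pIpC, its inducer, or how old they were. The RNA was polyA RNA sequenced by Illumina, and values were FPKM, fragment counts divided by transcript length and by the library's mapped fragments.

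Differentiation from a multipotent cell towards the red cell and platelet branch is known to pass through a switch of GATA factors. Gata2, which maintains stem and early progenitor cells, gives way to Gata1, and Gata1 with its cofactor Zfpm1 (FOG-1), the Tal1, Lmo2 and Ldb1 complex and Klf1 then turns on the genes of heme, globin and the red cell membrane. In the same interval the cells give up the Hox, Meis1 and Hlf program of stem cells, their priming for lymphoid and granulocyte-monocyte fates, and much of their receptor repertoire. Erythropoietin, acting through Epor, drives the red cell branch that follows.

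The sorted fractions carried the genes of their gates, which are given as a check of the labels and without a test. Ly6a, which encodes Sca1, stood at 66.0, 70.7 and 59.8 FPKM in the LSK libraries of replicates 1, 2 and 3 and at 0.790, 0 and 0.751 FPKM in the MEP libraries. Kit, the receptor both gates required, was read at 164, 148 and 174 FPKM in LSK and 82.9, 77.0 and 83.5 FPKM in MEP. Cd34 was at 649.7, 551 and 548 FPKM in LSK and 23.9, 5.43 and 60.6 FPKM in MEP, so the MEP libraries lay far below the LSK libraries and also differed among themselves, with replicate 2 lowest. Fcgr3, one of the genes of the FcγRII/III gate, was at 16.6, 43.2 and 19.9 FPKM in LSK and 4.54, 1.21 and 1.49 FPKM in MEP. The labels and these genes pointed the same way in every library.

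Replicates resembled each other more than the cell types did. Taken across 11377 tested genes, which do not count as independent replicates, Pearson's r was 0.971 to 0.976 between LSK libraries, 0.974 to 0.983 between MEP libraries and 0.771 to 0.846 between an LSK and an MEP library. MEP replicate 2 had the lowest values of r with the LSK libraries, 0.771 to 0.785. The files held no fragment counts, so the absolute depth is unknown, but low values fell into steps that 1 fragment makes. The commonest step put LSK replicates 2 and 3 at 0.87 and 0.79 of the depth of LSK replicate 1, and MEP replicates 2 and 3 at 1.44 and 1.41 of that of MEP replicate 1. Of the tested genes, 207 had 1 or more libraries listed at 0, and 158 of these were called. A pair of libraries stood apart in ways that touch the results below. LSK replicate 2 held neutrophil marker genes at a summed 10420 FPKM, against 2107 and 1913 FPKM in the other LSK libraries, and MEP replicate 2 had more globin and fewer megakaryocytic and stem cell transcripts than the other MEP libraries.

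Of 24315 genes, the 11377 whose mean over the 6 libraries was at least 1 FPKM were tested by limma on the difference between MEP and LSK in each mouse. A gene near 0 in one fraction passes this minimum only through the other, so the filter then sets its direction. The list counts below share this limit. The LSK and the MEP values were scaled to each other only within their own table, so the median difference of all tested genes was set to 0 in each mouse and every log2 difference below is MEP minus LSK on the log2(FPKM + 1) scale relative to the median gene. Cell type and table cannot be told apart. In bulk RNA of sorted cells, fewer cells of a type and less RNA per cell cannot be told apart either. At an adjusted p (Benjamini-Hochberg) under 0.05 and a fold change above 1.5, 5770 genes (50.7%) differed, of which 2589 (22.8% of those tested) were higher in MEP and 3181 (28.0%) were higher in LSK. In FPKM before centring, every MEP library lay above every LSK library in 2515 of the former. On the same scale every LSK library lay above every MEP library in 3162 of the latter. Centring raised the MEP values of each mouse, which bears on these counts. Overlap of libraries is stated before centring throughout, except where centring is named. The scale of the comparison bears on this split. LSK-higher genes were 55.1% of the called genes with the median gene at 0, 65.5% with no centring, 73.4% when genes above the median level were centred, and 48.4% after quantile normalization, and no gene was called in the opposite direction under any of these settings. A difference of over 4 on the log2 scale was reached by 49 genes in the direction of MEP and by 18 in that of LSK.

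**Figure D1:**
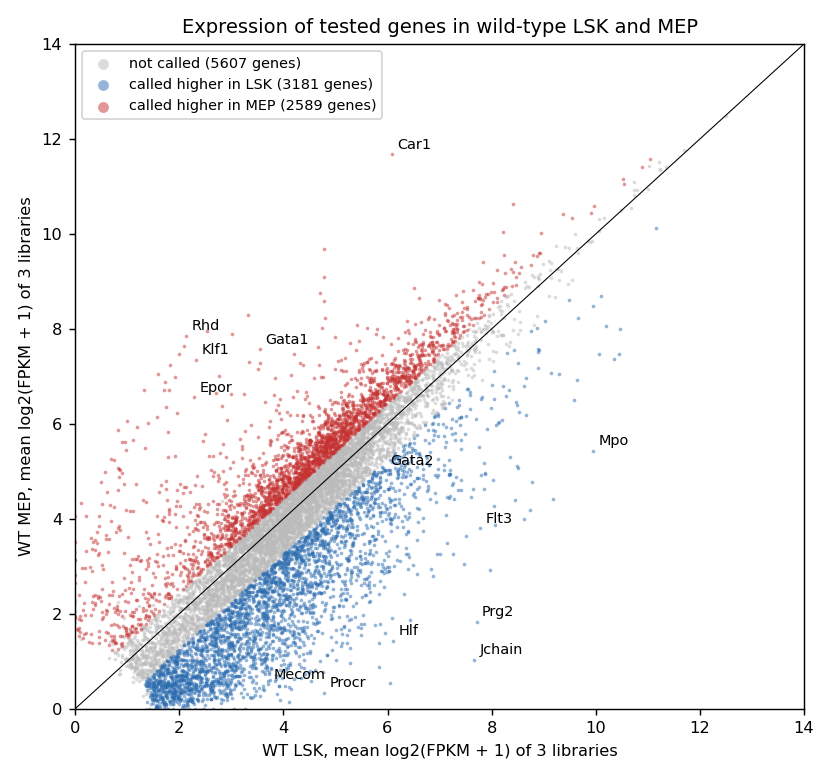
Each point is 1 of the 11377 tested genes, with its mean log2(FPKM + 1) over the 3 WT LSK libraries on the x axis and over the 3 WT MEP libraries on the y axis, before centring. The 2589 genes called higher in MEP (red) include a group with low LSK and high MEP values, such as Gata1, Klf1, Rhd and Car1, and the 3181 genes called higher in LSK (blue) crowd towards low MEP values.

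Among the 12 genes with the largest difference in the direction of MEP were Rhd and Rhag, which form the Rh antigen complex of the red cell surface, Ermap, an erythroid membrane adhesion protein, Add2, the beta subunit of the membrane skeleton protein adducin, Car1, the abundant carbonic anhydrase of red cells, and Pklr, the red cell and liver pyruvate kinase. Car1 was read at 49.9, 77.6 and 76.0 FPKM in LSK and 3549, 3713 and 2686 FPKM in MEP, which made it the highest MEP gene of the 12, and its LSK and MEP libraries did not overlap (log2 difference 5.76, standard error 0.19, adjusted p = 0.000115). Rhd was at 1.85, 3.09 and 6.32 FPKM in LSK and 221, 325 and 172 FPKM in MEP (log2 difference 5.88, standard error 0.36, adjusted p = 0.000195). Cldn13, a claudin, stood at 2.55, 2.42 and 5.40 FPKM in LSK and 169, 272 and 169 FPKM in MEP (log2 difference 5.70, standard error 0.29, adjusted p = 0.000151). Sphk1, the kinase that makes sphingosine 1-phosphate, was at 1.54, 2.71 and 3.72 FPKM in LSK and 137, 195 and 124 FPKM in MEP (log2 difference 5.56, standard error 0.22, adjusted p = 0.000128). Atp1b2, a beta subunit of the sodium pump, Tspo2, an erythroid cholesterol-binding protein, Aldh1a7 and Asb17os completed the list, with log2 differences of 5.31, 5.24, 5.23 and 5.21. Asb17os was listed at 0 in LSK replicate 1, and its difference was 5.82 without replicate 3.

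In the direction of LSK the 12 largest differences, leaving out the genes of the sort gates given above (such as Ly6a and Cd34), were of mixed kind. Hlf, the stem cell bZIP factor, Procr, the endothelial protein C receptor used to purify stem cells, and Adgrl4, an adhesion G protein-coupled receptor, stood beside genes of granules. These were Mpo, Elane and Prtn3 of neutrophil precursors, Prg2 of eosinophils, and Prss34 and Mcpt8 of basophils. Jchain, the joining chain of polymeric immunoglobulin, was at 82.1, 746 and 132 FPKM in LSK and 1.07, 0.741 and 1.37 FPKM in MEP and had the largest difference of all (log2 difference -6.47, standard error 0.66, adjusted p = 0.000582), with LSK replicate 2 far above the other libraries. Without replicate 2 it stayed called, at -5.40 on the log2 scale, and without replicate 1 it was at -7.12. Prg2 was even across LSK, at 191, 232 and 205 FPKM in LSK and 2.48, 1.505 and 4.21 FPKM in MEP (log2 difference -5.72, standard error 0.24, adjusted p = 0.000129). Hlf was read at 67.6, 57.1 and 80.5 FPKM in LSK and 1.69, 0.495 and 3.89 FPKM in MEP (log2 difference -4.51, standard error 0.24, adjusted p = 0.000166). Procr was at 28.8, 17.2 and 37.6 FPKM in LSK and 0, 0.215 and 0.661 FPKM in MEP (log2 difference -4.29, standard error 0.21, adjusted p = 0.000147). Ly6c2, a Ly6 surface antigen of myeloid cells, and the uncharacterized 9030619P08Rik made up the 12, at log2 differences of -4.26 and -4.40. Leaving out replicate 1 or 2 moved Ly6c2 to -5.12 and -3.46.

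Of the GATA switch, the rise of Gata1 was plain in single libraries and the fall of Gata2 was less so. Gata1 stood at 7.83, 12.1 and 12.9 FPKM in LSK and 178, 225 and 170.2 FPKM in MEP, so that the lowest MEP library lay above the highest LSK library by a wide margin (log2 difference 4.18, standard error 0.14, adjusted p = 0.000117). Gata2 ran the other way and by less, at 54.7, 54.1 and 74.5 FPKM in LSK and 34.2, 18.6 and 49.2 FPKM in MEP (log2 difference -0.75, standard error 0.19, adjusted p = 0.0165), with MEP replicate 2 lowest. Once centred, Gata2 of MEP replicate 3 lay among the LSK libraries. Without replicate 2 the Gata2 difference was -0.46 and no longer reached the fold threshold, and Gata2 was not called when the mouse was left out of the fit. On the FPKM scale Gata1 was the lower of the pair in each LSK library and the higher of the pair in each MEP library. Klf1, the erythroid Krüppel-like factor that activates beta-globin, was at 1.96, 4.96 and 6.05 FPKM in LSK and 144, 192 and 154 FPKM in MEP (log2 difference 5.19, standard error 0.22, adjusted p = 0.000133).

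Among 20 erythroid and megakaryocytic transcription factors and cofactors, all tested, 8 rose in MEP (40.0%, against 22.8% of all tested genes) and 6 were higher in LSK (30.0%, near the 28.0% of all tested genes). Their median log2 difference was 0.46 against 0 for all tested genes. It was 0.30 with no centring, 0.17 when genes above the median level were centred and 0.29 after quantile normalization. The medians of all tested genes were then -0.16, -0.29 and 0.08. Gfi1b, the repressor that red cells and platelets both need, rose from 14.7, 18.3 and 24.8 FPKM to 137, 191 and 141 FPKM (log2 difference 3.13, standard error 0.17, adjusted p = 0.000168). Zfpm1, Tal1 and Ldb1 rose by less, while Lmo2 and Cbfa2t3 of the Tal1 complex were higher in LSK. Zfpm1 stood at 25.4, 26.3 and 36.6 FPKM in LSK and 72.6, 81.1 and 81.2 FPKM in MEP (log2 difference 1.56, standard error 0.11, adjusted p = 0.000227). Tal1 was at 36.2, 36.1 and 46.4 FPKM in LSK and 79.4, 91.5 and 79.8 FPKM in MEP (log2 difference 1.23, standard error 0.11, adjusted p = 0.000459). Ldb1, which bridges the complex, was at 104, 104 and 119 FPKM in LSK and 185, 192 and 156 FPKM in MEP (log2 difference 0.85, standard error 0.11, adjusted p = 0.0013), and was not called when genes above the median level were centred or after quantile normalization (0.57 and 0.44). E2f4, whose loss impairs red cell maturation, and E2f2 rose with log2 differences of 1.85 and 1.26. Their libraries did not overlap between LSK and MEP.

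The factors of this list that were higher in LSK are shared with stem cells or with megakaryocytes, but so are some that rose, such as Gfi1b. Fli1, the Ets factor of the megakaryocytic branch, stood at 36.1, 34.5 and 33.9 FPKM in LSK and 10.7, 5.48 and 14.97 FPKM in MEP (log2 difference -1.59, standard error 0.25, adjusted p = 0.00272). Lmo2 was high in both fractions, at 538, 485 and 548 FPKM in LSK and 272, 284 and 306 FPKM in MEP (log2 difference -0.70, standard error 0.08, adjusted p = 0.000787). Lyl1, the close relative of Tal1, was at 79.8, 100.5 and 103 FPKM in LSK and 29.1, 37.3 and 33.7 FPKM in MEP (log2 difference -1.31, standard error 0.07, adjusted p = 0.000186). Nfe2, a regulator of platelet release and of globin, and Cbfa2t3 (ETO2), a corepressor of the Tal1 complex, were also higher in LSK, at log2 differences of -0.80 and -0.76. Myb, which both fractions need for division, was not called, at 213, 205 and 231 FPKM in LSK and 191, 157 and 202 FPKM in MEP (log2 difference -0.09, standard error 0.08, adjusted p = 0.378). Sox6, a silencer of embryonic globin, was at 4.42, 3.83 and 5.84 FPKM in LSK and 3.84, 5.13 and 4.12 FPKM in MEP, with libraries that overlapped.

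**Figure D2:**
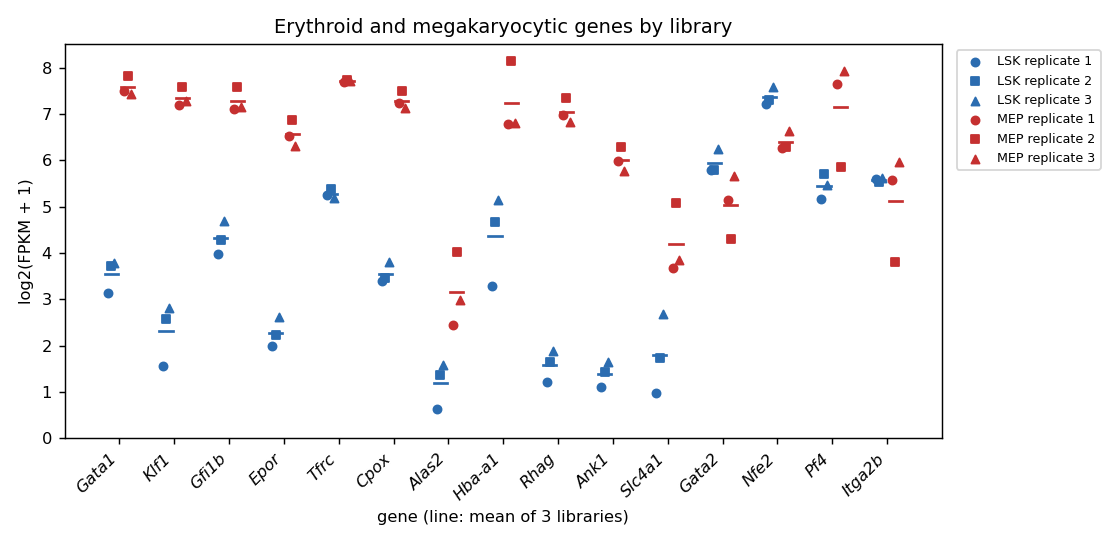
The y axis gives log2(FPKM + 1) of each library, before centring, for 15 erythroid and megakaryocytic genes, with LSK in blue, MEP in red, a marker shape for each mouse and a line at the mean of 3 libraries. The MEP libraries sit above the LSK libraries from Gata1 to Slc4a1, below them for Gata2 and Nfe2, and overlap them for Itga2b, where MEP replicate 2 is lowest.

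Genes of the red cell membrane and skeleton had the highest median of the lists examined. All 22 members were tested and called higher in MEP (against 22.8% of all tested genes), with a median log2 difference of 4.27. The count was 20 without centring and 20 when genes above the median level were centred, and fell to 18 when all 4 genotypes entered the fit. Rhag was at 1.33, 2.14 and 2.71 FPKM in LSK and at 133 ± 25.8 FPKM (mean ± SD, n = 3) in MEP (log2 difference 5.62, standard error 0.18, adjusted p = 0.000115). Ermap was at 3.09, 6.39 and 5.47 FPKM in LSK and 238, 281 and 225 FPKM in MEP (log2 difference 5.58, standard error 0.16, adjusted p = 0.000115). Add2 rose from 0.858, 2.14 and 1.73 FPKM to 100.2, 131 and 85.96 FPKM (log2 difference 5.55, standard error 0.16, adjusted p = 0.000115). In the membrane skeleton Ank1 (ankyrin) and Sptb, a spectrin chain, were at log2 differences of 4.78 and 4.22. Kel, the Kell blood group protein, and Aqp1, the water channel, stood at 4.73 and 5.07.

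Proteins of the mature red cell surface were at lower levels. Slc4a1, the anion exchanger band 3, was at 0.959, 2.35 and 5.47 FPKM in LSK and 11.7, 32.7 and 13.4 FPKM in MEP (log2 difference 2.55, standard error 0.40, adjusted p = 0.00267), and its partner protein 4.2, listed under the older symbol Epb4.2, was at 0.463, 0.464 and 0.953 FPKM in LSK and 13.8, 19.4 and 11.3 FPKM in MEP (log2 difference 3.42, standard error 0.23, adjusted p = 0.000228). Dmtn (dematin) was at 0.102, 0.292 and 0.421 FPKM in LSK and 8.23, 15.4 and 8.70 FPKM in MEP. Without replicate 3 Slc4a1 was at 3.17. The members that differed least included Gypc, Epb4.1 and Tmod1. Gypc was at 41.7, 39.98 and 47.8 FPKM in LSK and 55.5, 67.6 and 60.4 FPKM in MEP (log2 difference 0.65, standard error 0.10, adjusted p = 0.00232) and Epb4.1, the protein 4.1 gene, at 39.01, 38.6 and 41.3 FPKM in LSK and 68.5, 73.8 and 60.9 FPKM in MEP (log2 difference 0.91, standard error 0.09, adjusted p = 0.000545). Tmod1, which caps actin in the skeleton, had the smallest difference, at 0.981, 0.805 and 0.792 FPKM in LSK and 1.14, 1.75 and 1.70 FPKM in MEP (log2 difference 0.60, standard error 0.19, adjusted p = 0.0359). Tmod1 was not called when any replicate was left out (0.76, 0.52 and 0.51 without replicates 1, 2 and 3), and Gypc fell short of the fold threshold without replicate 2 (0.53).

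Most genes of heme synthesis rose. Of 14 genes tested 12 were higher in MEP (85.7%, against 22.8% of all tested genes), 1 was higher in LSK (7.14%, against 28.0%) and 1 was not called, with a median log2 difference of 2.43. The same 12 to 1 count was given by every scaling that was tried. The entry step differed from the rest, because the 5-aminolevulinate synthases moved in opposite directions. Alas1, the housekeeping isozyme, was at 29.0, 51.9 and 32.2 FPKM in LSK and 14.9, 14.6 and 13.7 FPKM in MEP (log2 difference -1.12, standard error 0.17, adjusted p = 0.00243), while the erythroid Alas2 was at 0.541, 1.57 and 2.01 FPKM in LSK and 4.45, 15.2 and 6.90 FPKM in MEP (log2 difference 2.11, standard error 0.26, adjusted p = 0.00101). Alas2 thus remained among the lowest of these enzymes in MEP, with replicate 2 highest. Slc25a38, which supplies the glycine for this step to mitochondria, rose by 2.48 on the log2 scale.

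Downstream of that step Alad, Uros, Urod, Cpox, Ppox and Fech were each higher in MEP. Cpox (coproporphyrinogen oxidase) stood at 9.50, 10.02 and 12.9 FPKM in LSK and 149, 179 and 139 FPKM in MEP (log2 difference 3.89, standard error 0.14, adjusted p = 0.000117). Fech, the ferrochelatase that inserts the iron, was at 16.99, 20.3 and 17.5 FPKM in LSK and 94.7, 133 and 85.95 FPKM in MEP (log2 difference 2.59, standard error 0.10, adjusted p = 0.000126). Ppox changed least of these enzymes, by 1.31 on the log2 scale. The transporters Abcb6 and Abcb10 rose by 2.93 and 2.37, and Tmem14c, which moves porphyrin across the mitochondrial membrane, was at 86.9, 99.4 and 83.4 FPKM in LSK and 394, 646 and 389 FPKM in MEP (log2 difference 2.51, standard error 0.12, adjusted p = 0.000143). Slc25a37 (mitoferrin), the mitochondrial iron importer, was the member not called, at 30.9, 24.6 and 32.8 FPKM in LSK and 20.1, 24.3 and 20.3 FPKM in MEP (log2 difference -0.27, standard error 0.14, adjusted p = 0.145).

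Globin transcripts were present in all 6 libraries and rose in MEP. Of 9 globin-related genes 8 were in the files and 3 passed the minimum level, all 3 called higher in MEP (against 22.8% of all tested genes), and the call of Hbb-b1 was lost when all 4 genotypes entered the fit. Hba-a1 (alpha) was at 8.83, 24.4 and 34.6 FPKM in LSK and 109.7, 279.8 and 110.3 FPKM in MEP (log2 difference 3.03, standard error 0.37, adjusted p = 0.0011). Hbb-b1 (beta major) was at 14.1, 34.8 and 57.8 FPKM in LSK and 97.4, 264 and 108 FPKM in MEP (log2 difference 2.32, standard error 0.39, adjusted p = 0.00337). Hbb-b2 (beta minor) was at 9.999, 16.98 and 17.01 FPKM in LSK and 69.1, 177 and 62.4 FPKM in MEP (log2 difference 2.76, standard error 0.27, adjusted p = 0.000506). MEP replicate 2 was above the other MEP libraries for each of these, and without replicate 3 the differences of Hba-a1 and Hbb-b1 were 3.63 and 2.95. The embryonic genes Hbb-bh1, Hbb-y and Hba-x were listed at 0 in every LSK library and at no more than 0.692 FPKM in MEP. Hba-a2 was read at under 0.1 FPKM everywhere, and as it is nearly identical to Hba-a1 the division of reads between them is uncertain.

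Among 16 genes of iron uptake, storage and sensing 9 were higher in MEP (56.2%, against 22.8% of all tested genes) and 3 were higher in LSK (18.8%, against 28.0%). Tfrc, the transferrin receptor, was at 37.3, 40.4 and 35.2 FPKM in LSK and 204, 210.5 and 209.4 FPKM in MEP (log2 difference 2.60, standard error 0.08, adjusted p = 0.000115), close to equal within each fraction. Steap3, the reductase of the transferrin endosome, was at 9.68, 13.5 and 11.5 FPKM in LSK and 74.8, 104 and 86.03 FPKM in MEP (log2 difference 2.99, standard error 0.07, adjusted p = 0.000115), Slc11a2 (DMT1), which exports iron from the endosome, rose by 2.69 and Glrx5 of the iron-sulfur pathway by 2.45 on the log2 scale. Fth1, the ferritin heavy chain, was abundant in both, at 1067, 1018 and 906 FPKM in LSK and 1435, 1934 and 1330.0 FPKM in MEP (log2 difference 0.79, standard error 0.12, adjusted p = 0.00236). Slc40a1 (ferroportin), the exporter, was at 16.5, 51.8 and 7.84 FPKM in LSK and 52.1, 64.5 and 49.0 FPKM in MEP (log2 difference 1.63, standard error 0.40, adjusted p = 0.0137), where LSK replicate 2 lay between the MEP libraries. The call of Slc40a1 was lost without replicate 1 (1.56), and its difference was 2.22 without replicate 2. Hfe, which modulates transferrin receptors, Ncoa4, the receptor that takes ferritin to lysosomes, and Slc39a14, a zinc and iron importer, were the 3 members higher in LSK, by log2 differences of -2.26, -1.21 and -1.499.

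Promoter sequence of the members that rose together is shown for those with the largest change that held a GATA motif. The motif was AGATAA or TGATAA on either strand, searched in the 250 bases upstream of the start of each gene in RefSeq (GRCm38.p6), which was matched by symbol to 8730 of the 11377 tested genes. For a gene with several starts only the first listed was read. Genes without a match were left out. The search thus covered 12 of 22 red cell membrane genes, 11 of 14 heme genes, 16 of 20 erythroid and megakaryocytic factors and 23 of 27 stem cell factors. A promoter with the motif was held by 5 of 12 red cell membrane genes (41.7%), 2 of 11 heme genes (18.2%), 5 of 16 erythroid and megakaryocytic factors (31.2%) and 1 of 23 stem cell factors (4.35%). The share was 9.14% of all tested genes, 9.87% of all genes called higher in MEP and 10.1% of those called higher in LSK. A match is a description of the letters and not a binding site. Below, each sequence runs 5′ to 3′ on the strand of its gene, with the motif in capitals, where TTATCA is TGATAA read on the other strand.
Rhd: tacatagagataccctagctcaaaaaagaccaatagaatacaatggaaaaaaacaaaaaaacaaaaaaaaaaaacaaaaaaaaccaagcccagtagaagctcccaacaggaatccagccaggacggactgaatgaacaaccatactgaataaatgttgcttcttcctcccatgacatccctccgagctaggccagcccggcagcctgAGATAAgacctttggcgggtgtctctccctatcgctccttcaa
Rhag: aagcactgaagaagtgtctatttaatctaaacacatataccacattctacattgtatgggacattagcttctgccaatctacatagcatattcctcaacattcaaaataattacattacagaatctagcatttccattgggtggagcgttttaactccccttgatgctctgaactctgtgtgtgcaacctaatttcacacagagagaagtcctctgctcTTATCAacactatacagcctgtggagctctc
Ermap: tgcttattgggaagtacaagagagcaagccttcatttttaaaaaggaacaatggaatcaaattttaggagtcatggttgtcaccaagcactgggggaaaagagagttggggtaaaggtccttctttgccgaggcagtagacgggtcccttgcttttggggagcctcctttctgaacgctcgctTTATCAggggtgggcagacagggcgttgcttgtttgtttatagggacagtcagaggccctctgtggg
Klf1: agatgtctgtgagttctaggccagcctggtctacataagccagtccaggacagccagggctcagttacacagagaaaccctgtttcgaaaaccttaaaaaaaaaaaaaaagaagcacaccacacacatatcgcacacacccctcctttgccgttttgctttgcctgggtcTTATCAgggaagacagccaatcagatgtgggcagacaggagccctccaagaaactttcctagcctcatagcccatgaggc
Kel: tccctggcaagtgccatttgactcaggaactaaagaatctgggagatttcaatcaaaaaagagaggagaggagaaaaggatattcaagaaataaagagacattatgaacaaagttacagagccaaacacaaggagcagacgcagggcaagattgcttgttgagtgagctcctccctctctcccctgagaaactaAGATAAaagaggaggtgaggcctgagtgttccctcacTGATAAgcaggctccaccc
Cpox: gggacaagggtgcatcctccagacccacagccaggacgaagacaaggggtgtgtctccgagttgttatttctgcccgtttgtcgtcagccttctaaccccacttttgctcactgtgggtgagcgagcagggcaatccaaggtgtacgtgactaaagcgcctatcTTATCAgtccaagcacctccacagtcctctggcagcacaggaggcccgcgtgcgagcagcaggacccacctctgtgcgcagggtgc

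These stretches lie at chr4:134864286-134864535 for Rhd (plus strand), chr17:40810899-40811148 for Rhag (plus), chr4:119189996-119190245 for Ermap (minus), chr8:84901732-84901981 for Klf1 (plus), chr6:41704326-41704575 for Kel (minus) and chr16:58669958-58670207 for Cpox (plus). The motif began 43 bases before the start in Rhd, 31 in Rhag, 67 in Ermap, 80 in Klf1 and 86 in Cpox. Kel held 2 matches, 56 and 19 bases before its start. A KLF motif (CCNCNCCC) was in 63.7% of all promoters of tested genes, in 58.3% of those of red cell membrane genes, 63.6% of heme genes, 81.2% of erythroid and megakaryocytic factors and 87.0% of stem cell factors. An ETS motif (AGGAAG) was in 28.6% of all, and in 25.0%, 36.4%, 12.5% and 17.4% of these 4 lists in the same order. Both motifs were searched on either strand.

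Transcripts of the erythropoietin receptor rose in MEP, and most other genes of its pathway, many of them shared with other cytokines, did not. Epor stood at 2.99, 3.69 and 5.11 FPKM in LSK and 90.8, 115 and 78.0 FPKM in MEP (log2 difference 4.44, standard error 0.19, adjusted p = 0.000139). Of the 15 genes of this pathway 3 were higher in MEP (20%, near the 22.8% of all tested genes) and 8 were higher in LSK (53.3%, against 28.0%), with a median of -0.80, or -0.41 after quantile normalization. Jak2, the kinase bound to Epor, was at 30.8, 33.8 and 30.6 FPKM in LSK and 44.98, 42.4 and 43.2 FPKM in MEP (log2 difference 0.60, standard error 0.08, adjusted p = 0.00158), and Gab1, an adaptor, rose by 0.73. Without centring neither was called, Jak2 was not called without replicate 1 (0.56) or 3 (0.58), and Gab1 was not called without replicate 2 (0.57). The inhibitors Socs3 and Cish and the target Pim1 were higher in LSK, and the inhibitor Socs1 was not called, at -0.74. Socs3 was at 33.5, 18.8 and 22.1 FPKM in LSK and 2.91, 1.63 and 3.33 FPKM in MEP (log2 difference -2.67, standard error 0.17, adjusted p = 0.000206). Pim1, the survival kinase, was at 201, 153 and 156 FPKM in LSK and 55.2, 33.5 and 44.6 FPKM in MEP (log2 difference -1.77, standard error 0.10, adjusted p = 0.000186). Cish was at 7.10, 7.90 and 7.54 FPKM in LSK and 3.73, 1.37 and 2.06 FPKM in MEP (log2 difference -1.23, standard error 0.24, adjusted p = 0.00576). Osm (oncostatin M) was higher in LSK as well, at a log2 difference of -1.74. Stat5a and Stat5b, the factors that Jak2 phosphorylates, were not called, at log2 differences of 0.49 and -0.15, and Bcl2l1, the survival target in red cells, was not called at -0.54 but passed the thresholds without replicate 2 (-0.62).

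Megakaryocytic genes did not move as a group. Of 24 members 20 were tested, 4 were higher in MEP and 7 in LSK (20% and 35%, against 22.8% and 28.0% of all tested genes), and the median was -0.05, 0.03 after quantile normalization and 0.29 without replicate 2, so it has no firm sign. Pf4 (platelet factor 4) was at 34.9, 50.8 and 43.3 FPKM in LSK and 199, 56.5 and 243 FPKM in MEP (log2 difference 1.86, standard error 0.48, adjusted p = 0.0169). Gp5, a platelet glycoprotein, was at 3.29, 4.42 and 4.18 FPKM in LSK and 11.997, 10.9 and 16.5 FPKM in MEP (log2 difference 1.65, standard error 0.16, adjusted p = 0.000483). Vwf (von Willebrand factor) was at 3.81, 3.74 and 4.91 FPKM in LSK and 9.94, 5.47 and 13.7 FPKM in MEP (log2 difference 1.14, standard error 0.20, adjusted p = 0.00402). Treml1 was at 1.83, 3.71 and 3.18 FPKM in LSK and 9.12, 3.50 and 9.03 FPKM in MEP (log2 difference 1.17, standard error 0.37, adjusted p = 0.0327). The calls of Pf4 and Treml1 were lost without replicate 1 (1.46 and 0.76) and without replicate 3 (1.47 and 1.04), and without replicate 2 Pf4 was at 2.64. Selp (P-selectin), Gng11 and Mmrn1 were higher in LSK, at log2 differences of -2.197, -1.80 and -1.68.

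The MEP libraries differed among themselves in this list. Itga2b, which encodes CD41, was at 47.2, 45.2 and 48.3 FPKM in LSK and 46.6, 12.9 and 61.5 FPKM in MEP (log2 difference -0.31, standard error 0.40, adjusted p = 0.515), and its partner Itgb3 at 4.97, 6.60 and 6.12 FPKM in LSK and 4.66, 1.56 and 8.79 FPKM in MEP. Without replicate 2 the differences of Itga2b and Itgb3 changed sign, to 0.33 and 0.36, and neither was called. The summed level of the list was 593 FPKM in MEP replicate 1, 316 in replicate 2 and 732 in replicate 3, while in LSK it was between 583 and 645. The globin list summed to 276, 721 and 281 FPKM in MEP replicates 1, 2 and 3, so that replicate 2 was lowest for the one list and highest for the other. Within MEP, the library with the least Pf4, Itga2b and Cd34 thus had the most globin. Genes called higher in MEP numbered 7 of 20 without replicate 2, against 4 of 20 with it.

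Most stem cell regulators were lower in MEP. Of 28 transcription and RNA-binding regulators 27 were tested, of which 25 were higher in LSK (92.6%, against 28.0% of all tested genes) and none in MEP, with a median of -1.999. The count was 23 to 25 under the other scalings. Mecom (Evi1), without which stem cells are lost, was at 11.8, 9.97 and 14.8 FPKM in LSK and 0.290, 0.168 and 0.928 FPKM in MEP (log2 difference -3.03, standard error 0.14, adjusted p = 0.000141). Meis1, the Hox cofactor, was at 70.5, 49.4 and 58.1 FPKM in LSK and 9.61, 2.84 and 13.2 FPKM in MEP (log2 difference -2.68, standard error 0.31, adjusted p = 0.000842). Erg, an Ets factor of stem cells, stood at 85.5, 78.2 and 88.2 FPKM in LSK and 6.79, 6.98 and 11.4 FPKM in MEP (log2 difference -3.05, standard error 0.14, adjusted p = 0.000139). Nkx2-3, a homeobox gene, was at 15.7, 10.1 and 18.5 FPKM in LSK and 0, 0 and 0.453 FPKM in MEP (log2 difference -3.60, standard error 0.17, adjusted p = 0.000139). Gfi1, a repressor of stem cell division and of monocyte genes, was at 20.3, 26.3 and 19.3 FPKM in LSK and 1.58, 0.981 and 1.24 FPKM in MEP (log2 difference -3.18, standard error 0.18, adjusted p = 0.000186). Hlf is given above. In MEP the residual level of Hlf, Mecom and Meis1 was lowest in replicate 2 and highest in replicate 3.

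Other members fell by less or did not fall. Runx1 was at 28.1, 27.7 and 24.8 FPKM in LSK and 12.7, 10.004 and 13.5 FPKM in MEP (log2 difference -0.94, standard error 0.13, adjusted p = 0.0016). Hmga2, Sox4, Etv6 and Msi2 were lower in MEP, at log2 differences of -1.999, -2.18, -2.08 and -1.58. Ikzf1 (Ikaros) and Bcl11a, which silences fetal globin in red cells, were the members not called, with log2 differences of 0.49 and 0.43. Bcl11a was at 54.5 ± 7.40 FPKM (mean ± SD, n = 3) in LSK and 67.1, 64.2 and 65.6 FPKM in MEP, with no overlap of the libraries.

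Hox genes of the Hoxa cluster followed the stem cell pattern. Of 11 Hoxa genes 7 were tested and all 7 were higher in LSK (against 28.0% of all tested genes), with a median of -2.002, against 6 of 7 after quantile normalization. Hoxa2, Hoxa3 and Hoxa6 were under 1 FPKM in every MEP library. They passed the minimum level only through LSK, so the filter set their direction. Hoxa4 was not tested, and its libraries overlapped. Hoxa9 was the highest, at 24.6, 27.7 and 34.4 FPKM in LSK and 3.38, 3.17 and 6.38 FPKM in MEP (log2 difference -2.37, standard error 0.13, adjusted p = 0.000186). Hoxa5 was at 10.7, 6.78 and 10.8 FPKM in LSK and 1.09, 0.587 and 0.946 FPKM in MEP (log2 difference -2.30, standard error 0.14, adjusted p = 0.000194). Hoxa10 was at 6.52, 6.70 and 10.4 FPKM in LSK and 1.66, 0.719 and 1.33 FPKM in MEP (log2 difference -1.82, standard error 0.20, adjusted p = 0.000698). The MEP values of Hoxa6 and Hoxa3 were at most 0.561 FPKM and 0.556 FPKM. Of 10 Hoxb genes only Hoxb3 and Hoxb4 were tested, and both were higher in LSK, where the call of Hoxb4 was lost after quantile normalization (-0.52). Hoxb3 was likewise under 1 FPKM in every MEP library. Hoxb4, the self-renewal factor, was at 2.63, 3.10 and 4.75 FPKM in LSK and 0.430, 0.657 and 1.04 FPKM in MEP (log2 difference -1.22, standard error 0.16, adjusted p = 0.0012).

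Surface and secreted genes of stem cells and multipotent progenitors repeated this. Of 23 tested genes 19 were higher in LSK (82.6%, against 28.0% of all tested genes) and 1 in MEP, with a median of -2.25. Flt3, the receptor of multipotent progenitors with lymphoid potential, was at 247, 213 and 197 FPKM in LSK and 13.8, 7.35 and 20.9 FPKM in MEP (log2 difference -3.81, standard error 0.28, adjusted p = 0.000259). Adgrl4 was at 281, 231 and 237 FPKM in LSK and 7.49, 1.53 and 19.6 FPKM in MEP (log2 difference -4.88, standard error 0.53, adjusted p = 0.000725), or at -4.13 and -5.63 without replicates 2 and 3. Cd27 was at 136, 110.1 and 138 FPKM in LSK and 7.05, 4.80 and 17.7 FPKM in MEP (log2 difference -3.59, standard error 0.28, adjusted p = 0.000283). Robo4 was at 16.95, 12.3 and 13.1 FPKM in LSK and 0.393, 0.195 and 0.599 FPKM in MEP (log2 difference -3.28, standard error 0.16, adjusted p = 0.000147). Emcn (endomucin) was at 16.99, 17.5 and 15.97 FPKM in LSK and 0.330, 0.458 and 0.235 FPKM in MEP (log2 difference -3.58, standard error 0.13, adjusted p = 0.000117). Angpt1, the Tie2 ligand, was abundant in LSK at 146, 116 and 161 FPKM and stood at 24.4, 8.43 and 43.8 FPKM in MEP. Its receptor Tek differed by -1.04. Vwf was the member higher in MEP, and Slamf1 (CD150), Cd9 and Pdzk1ip1 were not called. Slamf1 was at 2.43, 3.39 and 3.94 FPKM in LSK and 2.95, 1.31 and 3.90 FPKM in MEP, with libraries that overlapped, and Pdzk1ip1 passed the thresholds without replicate 2 (-0.63).

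**Figure D3:**
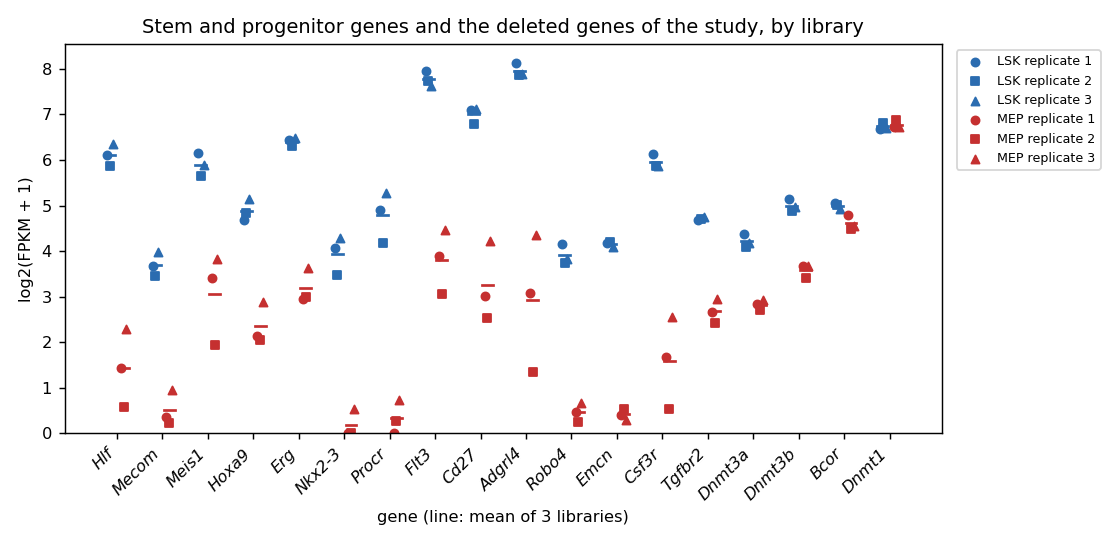
The y axis gives log2(FPKM + 1) of each library, before centring, for 18 genes, with LSK in blue, MEP in red, a marker shape for each mouse and a line at the mean of 3 libraries. The LSK libraries lie above the MEP libraries for the stem and progenitor genes and for Dnmt3a and Dnmt3b, the Bcor values lie close together, and those of Dnmt1 overlap.

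Receptors for cytokines and growth factors were lost broadly. Of 29 tested receptors 23 were higher in LSK (79.3%, against 28.0% of all tested genes) and 3 in MEP. Csf3r, the G-CSF receptor, was at 69.2, 57.2 and 57.6 FPKM in LSK and 2.21, 0.460 and 4.897 FPKM in MEP (log2 difference -4.202, standard error 0.37, adjusted p = 0.000384). Csf1r and the common beta chain Csf2rb had log2 differences of -2.90 and -2.82, and Il1r1 of -2.74, with Csf1r at -2.30 without replicate 2. Both TGF-beta receptors were higher in LSK, with Tgfbr2 at 24.7, 25.1 and 26.0 FPKM in LSK and 5.35, 4.35 and 6.70 FPKM in MEP (log2 difference -1.88, standard error 0.13, adjusted p = 0.000227). The 3 receptors higher in MEP were Epor, Ifngr1 and Il1rl1. Il1rl1, the IL-33 receptor, was at 1.004, 3.04 and 2.48 FPKM in LSK and 20.6, 22.4 and 25.4 FPKM in MEP (log2 difference 3.12, standard error 0.19, adjusted p = 0.000201). Ifngr1, the interferon gamma receptor chain, was at 76.6, 96.8 and 74.3 FPKM in LSK and 130.2, 135 and 136 FPKM in MEP (log2 difference 0.86, standard error 0.10, adjusted p = 0.000849), and its call was lost when genes above the median level were centred and after quantile normalization (0.57 and 0.45). The type I interferon receptor genes Ifnar1 and Ifnar2 went the other way, at -0.96 and -0.999.

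MHC class I and interferon genes were higher in LSK. Of 25 tested members 17 were called (68.0%, against 28.0% of all tested genes), all in that direction, with a median of -0.76. Ifitm1 was at 398, 309.5 and 341 FPKM in LSK and 24.97, 8.96 and 35.7 FPKM in MEP (log2 difference -3.88, standard error 0.32, adjusted p = 0.000327). Ifitm3 was at 322, 270.1 and 287 FPKM in LSK and 55.6, 65.6 and 80.2 FPKM in MEP (log2 difference -1.96, standard error 0.14, adjusted p = 0.000247). H2-K1, a class I heavy chain, was at 1102, 1037 and 1135 FPKM in LSK and 453, 387 and 399 FPKM in MEP (log2 difference -1.24, standard error 0.09, adjusted p = 0.000231). B2m, its light chain, was at 2350.3, 2251 and 2286 FPKM in LSK and 1173, 1119 and 1036 FPKM in MEP (log2 difference -0.89, standard error 0.09, adjusted p = 0.000617). Irf1 differed by -1.81. Mx1, whose promoter drives the Cre of the mutant mice, was low in both, at 4.03, 3.88 and 2.60 FPKM in LSK and 1.53, 0.601 and 0.727 FPKM in MEP (log2 difference -1.06, standard error 0.19, adjusted p = 0.00458). The class II genes H2-Aa, H2-Ab1, H2-Eb1 and Cd74 were not called, and the libraries of each overlapped.

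Immediate early genes, which signalling and cell handling induce within minutes, were higher in LSK in 19 of 22 cases (86.4%, against 28.0% of all tested genes). Fos was at 1582, 1243 and 1408 FPKM in LSK and 320.1, 153 and 337 FPKM in MEP (log2 difference -2.30, standard error 0.19, adjusted p = 0.000348). Nr4a1 was at 754, 248 and 454 FPKM in LSK and 53.3, 7.45 and 43.5 FPKM in MEP (log2 difference -3.85, standard error 0.29, adjusted p = 0.000268). Zfp36 was at 906, 732 and 765 FPKM in LSK and 150.0, 69.1 and 171 FPKM in MEP (log2 difference -2.55, standard error 0.24, adjusted p = 0.000443). Fosl2 was at 33.8, 9.42 and 19.2 FPKM in LSK and 1.92, 0.628 and 2.21 FPKM in MEP (log2 difference -2.81, standard error 0.21, adjusted p = 0.000282). Klf2 and Ier3 were higher in LSK, at -2.41 and -2.43. Nfkbia, the inhibitor of NF-kappaB, was the member higher in MEP, at 128, 82.3 and 82.8 FPKM in LSK and 238, 152 and 131 FPKM in MEP (log2 difference 0.97, standard error 0.08, adjusted p = 0.000316), and was not called after quantile normalization. Levels also moved with the mouse, since the summed level of the list was highest in replicate 1 in both fractions (6347 FPKM in LSK and 1859 FPKM in MEP) and lowest in replicate 2 (4523 and 948 FPKM). The part of sorting time or handling in these differences was not tested.

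Priming for lymphoid fates was lower in MEP for most genes. Of 17 tested members 10 were higher in LSK (58.8%, against 28.0% of all tested genes) and 3 in MEP (17.6%, against 22.8%). Dntt, the terminal transferase of early lymphoid progenitors, was at 309, 333 and 219.7 FPKM in LSK and 50.3, 74.4 and 73.8 FPKM in MEP (log2 difference -1.94, standard error 0.20, adjusted p = 0.000561). Satb1 and Notch1, regulators of lymphoid specification, were at 39.8, 35.4 and 28.5 FPKM in LSK and 3.36, 2.27 and 5.32 FPKM in MEP (log2 difference -2.82, standard error 0.25, adjusted p = 0.000417) and 25.8, 26.3 and 22.5 FPKM in LSK and 2.76, 1.61 and 3.52 FPKM in MEP (log2 difference -2.71, standard error 0.21, adjusted p = 0.000282). The 3 members higher in MEP were genes of early B cells, namely Igll1 and Vpreb1 of the surrogate light chain and the factor Ebf1. Igll1 was at 4.65, 18.3 and 2.78 FPKM in LSK and 28.1, 62.8 and 9.92 FPKM in MEP (log2 difference 2.03, standard error 0.18, adjusted p = 0.000381). Vpreb1 was at 4.80, 16.4 and 3.26 FPKM in LSK and 26.0, 50.9 and 7.43 FPKM in MEP (log2 difference 1.75, standard error 0.23, adjusted p = 0.00143), so the fractions overlapped while each mouse had more in MEP, and replicate 2 was highest in both fractions. Without pairing by mouse, Igll1 was called and Vpreb1 and Ebf1 were not.

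Granulocyte-monocyte genes had the lowest median of the lists of progenitor programs examined. All 18 were tested, 15 were higher in LSK (83.3%, against 28.0% of all tested genes) and none in MEP, with a median of -3.23. Mpo was at 788, 1532 and 784.9 FPKM in LSK and 96.1, 10.8 and 69.2 FPKM in MEP (log2 difference -4.35, standard error 0.78, adjusted p = 0.00423). Elane (neutrophil elastase) was at 217, 812 and 343 FPKM in LSK and 49.4, 7.08 and 8.86 FPKM in MEP (log2 difference -4.47, standard error 0.82, adjusted p = 0.00463). Prtn3 was at 298, 697 and 376 FPKM in LSK and 47.1, 5.38 and 18.3 FPKM in MEP (log2 difference -4.41, standard error 0.74, adjusted p = 0.00332). Without replicates 1 and 2 in turn, Mpo was at -5.10 and -3.09, Elane at -5.73 and -3.45 and Prtn3 at -5.37 and -3.30, all still called. The regulators followed with less spread. Spi1 (PU.1), which opposes Gata1, was at 80.5, 83.5 and 79.5 FPKM in LSK and 10.7, 4.81 and 12.1 FPKM in MEP (log2 difference -2.94, standard error 0.25, adjusted p = 0.000366). Cebpa, the factor of granulocyte commitment, was at 16.1, 19.8 and 12.4 FPKM in LSK and 2.09, 0.580 and 2.02 FPKM in MEP (log2 difference -2.62, standard error 0.32, adjusted p = 0.00102). Irf8, Ly86 and Calr were not called. LSK replicate 2 summed to 5526 FPKM over this list, against 2786 and 3002 FPKM in the other LSK libraries, and without replicate 2 the count was again 15 of 18 with a median of -2.60.

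Markers of mature cells, which the lineage gate should remove, moved with these results. All 11 tested neutrophil markers were higher in LSK (summed level 1913 to 10420 FPKM in LSK and 311 to 574 FPKM in MEP), and so were all 12 macrophage markers (84.5 to 476 FPKM and 10.6 to 15.1 FPKM), against 28.0% of all tested genes. The macrophage markers other than Cd68, Hmox1 and Cd163 were under 1 FPKM in every MEP library, as were the neutrophil markers Mmp9 and Cxcr2. These passed the minimum level only through LSK, so the filter set their direction. S100a8, a calprotectin chain, was at 824, 4389 and 760.1 FPKM in LSK and 243.5, 120.3 and 186 FPKM in MEP (log2 difference -2.83, standard error 0.68, adjusted p = 0.0129). C1qb, a complement gene of macrophages, was at 27.9, 64.8 and 9.55 FPKM in LSK and 0.929, 0.966 and 0.331 FPKM in MEP (log2 difference -3.83, standard error 0.39, adjusted p = 0.000571). Vcam1 was at 22.6, 60.5 and 7.35 FPKM in LSK and 0.702, 0.399 and 0.408 FPKM in MEP. Without replicate 2 the differences of S100a8 and Vcam1 were -1.72 and -3.01. Without replicate 2 the counts were again 11 of 11 and 12 of 12, with medians of -1.77 and -2.06 in place of -2.73 and -2.62, and without replicate 1 the macrophage count was 11 of 12. Basophil and mast cell genes were called in 7 of 8 and eosinophil genes in 6 of 7, all higher in LSK (87.5% and 85.7%, against 28.0% of all tested genes). The same limit of the filter holds for Cyp11a1 and for the eosinophil genes Epx, Prg3, Ear1, Ear2 and Ear6. Mcpt8 was at 38.1, 51.4 and 88.5 FPKM in LSK and 1.24, 1.72 and 1.99 FPKM in MEP (log2 difference -4.27, standard error 0.17, adjusted p = 0.000128). Prss34 was at 30.5, 59.4 and 98.9 FPKM in LSK and 1.38, 0.548 and 0.704 FPKM in MEP (log2 difference -4.80, standard error 0.40, adjusted p = 0.000341, and -5.42 without replicate 1). Epx, the eosinophil peroxidase, was at 13.3, 15.3 and 21.3 FPKM in LSK and 0, 0.0568 and 0.291 FPKM in MEP (log2 difference -3.81, standard error 0.14, adjusted p = 0.000117). The mast cell genes Cma1 and Tpsb2 were at or near 0 in all libraries. The part of mature cells in the granulocyte-monocyte result was not tested.

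B cell markers were low in both fractions, at a summed 45.1 to 101 FPKM in LSK and 21.8 to 113 FPKM in MEP, and 5 of 8 tested were higher in MEP and 2 in LSK (62.5% and 25.0%, against 22.8% and 28.0% of all tested genes). The MEP calls rest on the pairing by mouse, since limma with the mouse left out of the fit called 0 of 8 higher in MEP and 2 in LSK, with 3 of the 8 at an unadjusted p under 0.05, and 3 were higher in MEP without replicate 1. Of 12 T and NK cell markers 6 were tested, 2 higher in MEP and 3 in LSK (33.3% and 50%, against 22.8% and 28.0% of all tested genes). The MEP count was 1 without replicate 1 or 2, and 3 without replicate 3 or with the mouse left out of the fit. The summed level of these markers was 253 to 270 FPKM in LSK and 48.5 to 88.0 FPKM in MEP. Most of this sum was Nkg7, a granule gene of NK cells, at 214, 228 and 207 FPKM in LSK and 51.3, 26.8 and 64.2 FPKM in MEP (log2 difference -2.10, standard error 0.26, adjusted p = 0.00113), while Ncr1, an NK cell receptor, was higher in MEP, at 0.591, 1.013 and 1.88 FPKM in LSK and 3.67, 6.43 and 3.64 FPKM in MEP (log2 difference 1.54, standard error 0.26, adjusted p = 0.00326). Of the T cell genes, Cd3e, Cd8a and Cd3g were at no more than 0.517, 0.669 and 1.38 FPKM in any library, while Cd4 and Lat were higher in LSK. Cd4 was at 3.79, 7.70 and 1.49 FPKM in LSK and 0.141, 0 and 0.2504 FPKM in MEP (log2 difference -1.902, standard error 0.41, adjusted p = 0.00885). Lat, an adaptor of T cell signalling, was at 34.7, 27.5 and 35.8 FPKM in LSK and 11.7, 4.72 and 14.5 FPKM in MEP (log2 difference -1.53, standard error 0.22, adjusted p = 0.00181). Of 12 endothelial and stromal markers 3 were tested and all 3 were called. The shares were 66.7% higher in LSK and 33.3% higher in MEP, against 28.0% and 22.8% of all tested genes. Pdgfrb, a PDGF receptor of stromal cells, and the chemokine gene Cxcl12 were higher in LSK, at log2 differences of -2.44 and -1.85. The endothelial gene Plvap was higher in MEP, at 1.83. Pdgfrb was at 25.5, 22.2 and 19.6 FPKM in LSK and 3.66, 1.23 and 4.47 FPKM in MEP. Cdh5, Col1a1 and Pdgfra, which define these cells, did not pass the minimum level. Their part in the results was not tested.

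**Figure D4:**
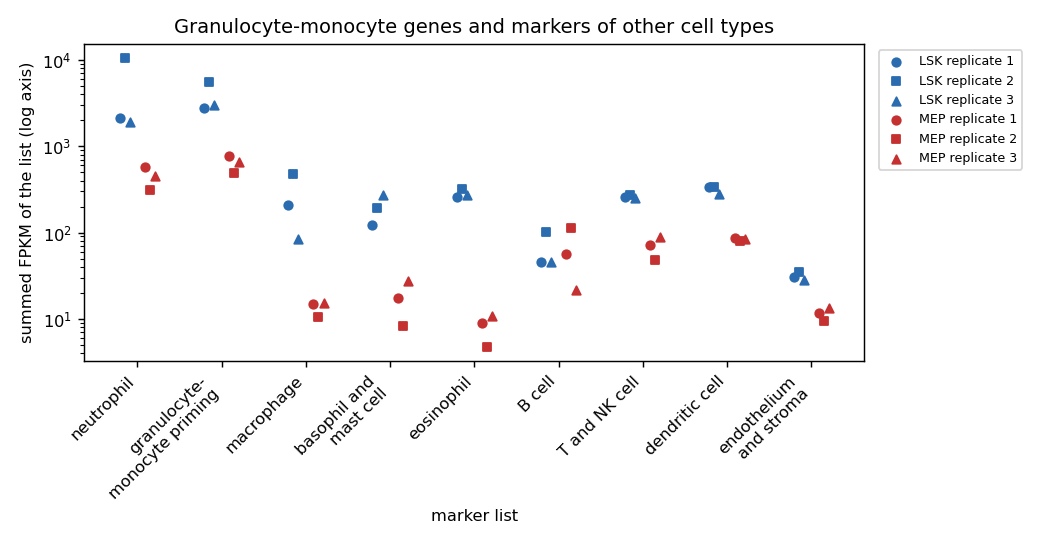
The y axis (log scale) gives the summed FPKM of each marker list in each of the 6 libraries, with LSK in blue and MEP in red. LSK replicate 2 (square) stands at 10420 FPKM for neutrophil markers and at 476 FPKM for macrophage markers, above the other 5 libraries, while B cell sums overlap between the fractions.

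DNA replication genes rose in MEP by a modest amount. All 26 members had a difference above 0 and 21 were called higher in MEP (80.8%, against 22.8% of all tested genes), with a median of 0.84. This count depends on the scale, and it was 17 without centring, 12 when genes above the median level were centred and 13 after quantile normalization. Orc1, of the origin recognition complex, was at 6.79, 6.08 and 6.39 FPKM in LSK and 24.3, 26.8 and 20.3 FPKM in MEP (log2 difference 1.89, standard error 0.12, adjusted p = 0.000201). Cdc6, which loads the helicase, was at 14.3, 14.7 and 14.5 FPKM in LSK and 38.4, 56.2 and 41.3 FPKM in MEP (log2 difference 1.72, standard error 0.12, adjusted p = 0.000228). Rrm2, the inducible subunit of ribonucleotide reductase, was at 58.3, 83.8 and 59.7 FPKM in LSK and 178, 253 and 186 FPKM in MEP (log2 difference 1.76, standard error 0.07, adjusted p = 0.000125). Rfc4 was at 48.9, 52.6 and 41.4 FPKM in LSK and 113.3, 152 and 118 FPKM in MEP (log2 difference 1.56, standard error 0.09, adjusted p = 0.000189). The Mcm helicase genes Mcm2 to Mcm7 had log2 differences between 0.50 (Mcm3, not called) and 1.03 (Mcm2).

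Mitosis genes rose in 12 of 22 cases (54.5%, against 22.8% of all tested genes) and none was called higher in LSK, with a median of 0.73. The count was 6 to 11 under the other scalings, lowest when genes above the median level were centred (27.3%, against 13.4% of all tested genes), and these scalings called Kif23 (-0.54 here) higher in LSK, as did the fit without replicate 2. Plk1 and Ccna2 were at 1.20 and 1.15 on the log2 scale, and Mki67, the proliferation antigen, was at 94.7, 97.5 and 90.2 FPKM in LSK and 182, 182 and 165 FPKM in MEP (log2 difference 1.06, standard error 0.07, adjusted p = 0.000206). The control of G1 changed by member. Ccne1 (cyclin E1) was at 5.67, 7.59 and 8.005 FPKM in LSK and 90.1, 119 and 86.4 FPKM in MEP (log2 difference 3.78, standard error 0.12, adjusted p = 0.000115), a rise above any other gene of the cell cycle lists. Ccnd1 and Ccnd2 were higher in LSK, at -1.09 and -0.97, while Ccnd3, the D cyclin of erythroid cells, rose by 0.88. Cdkn1a (p21) was at 72.6, 29.3 and 35.9 FPKM in LSK and 7.47, 4.12 and 9.28 FPKM in MEP (log2 difference -2.35, standard error 0.24, adjusted p = 0.000593). Cdkn1c (p57), an inhibitor of quiescent stem cells, was at 3.19, 1.39 and 3.77 FPKM in LSK and 0.238, 0.248 and 0.339 FPKM in MEP (log2 difference -1.35, standard error 0.24, adjusted p = 0.00404). Rb1 rose, at 11.1, 12.5 and 11.8 FPKM in LSK and 30.6, 30.3 and 27.2 FPKM in MEP (log2 difference 1.40, standard error 0.09, adjusted p = 0.000213).

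Subunits of the respiratory chain rose broadly. Of 77 tested genes 61 were higher in MEP (79.2%, against 22.8% of all tested genes) and none in LSK, with a median of 0.95. Under the other scalings 43 to 54 were called higher in MEP (55.8% to 70.1%, against 13.4% to 24.1% of all tested genes). Ndufs1 of complex I was at 42.3, 45.1 and 36.97 FPKM in LSK and 103, 120.2 and 101 FPKM in MEP (log2 difference 1.52, standard error 0.07, adjusted p = 0.000147). Sdhd of complex II was at 133, 143 and 133 FPKM in LSK and 312, 355 and 298 FPKM in MEP (log2 difference 1.39, standard error 0.07, adjusted p = 0.000151). Atp5g1 of the ATP synthase was at 32.1, 34.1 and 28.3 FPKM in LSK and 88.3, 106 and 71.5 FPKM in MEP (log2 difference 1.61, standard error 0.08, adjusted p = 0.00016). Cox6b2, a complex IV subunit, had the largest difference, 2.19. Genes of cytosolic ribosomal proteins differed little. Of 79 tested 20 were higher in MEP (25.3%, near the 22.8% of all tested genes) and 1 in LSK (1.27%, against 28.0%). The difference was above 0 in 73 of the 79. The median of 0.36 was 0.07 when genes above the median level were centred or quantiles were normalized. Many of these genes have near-identical copies, so their levels are uncertain.

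Of 22 genes of glycolysis 4 were higher in MEP and 9 were higher in LSK (18.2% and 40.9%, against 22.8% and 28.0% of all tested genes). Isozymes of the same step differed in direction. For pyruvate kinase, Pklr was at 1.99, 4.51 and 2.87 FPKM in LSK and 183, 239.5 and 125 FPKM in MEP (log2 difference 5.63, standard error 0.18, adjusted p = 0.000115). Pkm was at 364, 363 and 349.5 FPKM in LSK and 34.3, 20.8 and 53.7 FPKM in MEP (log2 difference -3.21, standard error 0.26, adjusted p = 0.000307). In hexokinase Hk1, the isozyme of red cells, rose by 1.13, while Hk2 and Hk3 were higher in LSK, at -2.08 and -3.91. Hk3 was at 52.4, 71.8 and 48.8 FPKM in LSK and 3.13, 0.705 and 4.77 FPKM in MEP, with a difference of -3.23 without replicate 2. For phosphofructokinase, Pfkp was higher in LSK (-0.89), Pfkm was higher in MEP (1.44) and Pfkl was not called (-0.20), and Pfkm was above Pfkp in every library. For lactate dehydrogenase, Ldhb was at 35.4, 36.2 and 33.1 FPKM in LSK and 1.84, 2.42 and 2.62 FPKM in MEP (log2 difference -3.29, standard error 0.12, adjusted p = 0.000126). Ldha was at 371, 394 and 366 FPKM in LSK and 607, 664 and 618 FPKM in MEP (log2 difference 0.90, standard error 0.07, adjusted p = 0.000319), above Ldhb in every library. Slc2a1, the glucose transporter GLUT1, was at 17.1, 10.3 and 15.5 FPKM in LSK and 2.23, 0.656 and 3.11 FPKM in MEP (log2 difference -2.26, standard error 0.18, adjusted p = 0.000307). Gapdh, Pgk1, Eno1 and Pgam1 have near-identical copies in the genome and were read at unusually low values, for example 1.98, 1.22 and 1.36 FPKM in LSK and 0.990, 1.03 and 1.41 FPKM in MEP for Gapdh, so their levels are uncertain.

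The genes that the study deletes were both expressed in the WT fractions. Bcor, a corepressor of the PRC1.1 Polycomb complex, was at 32.4, 31.1 and 29.5 FPKM in LSK and 26.9, 21.3 and 22.4 FPKM in MEP and was not called (log2 difference -0.23, standard error 0.09, adjusted p = 0.0648). Dnmt3a, a de novo DNA methyltransferase, was at 19.9, 16.1 and 17.2 FPKM in LSK and 6.11, 5.49 and 6.64 FPKM in MEP, with every LSK library above every MEP library (log2 difference -1.24, standard error 0.11, adjusted p = 0.000388). Dnmt3b, the other de novo enzyme, was likewise higher in LSK, at 34.3, 28.4 and 30.3 FPKM in LSK and 11.8, 9.62 and 11.8 FPKM in MEP (log2 difference -1.25, standard error 0.09, adjusted p = 0.00025). Dnmt1, the maintenance enzyme, was at 102, 112.2 and 104 FPKM in LSK and 105, 117 and 105 FPKM in MEP and was not called (log2 difference 0.19, standard error 0.07, adjusted p = 0.0405), and its sign turned with the scale. The demethylases Tet1 and Tet2 were higher in LSK, at -1.40 and -0.91, and Tet3 was not called.

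Among the 26 tested genes of Polycomb complexes and DNA methylation 5 were higher in MEP and 10 in LSK, with a median of -0.21. These were 19.2% and 38.5% of the list, against 22.8% and 28.0% of all tested genes. The MEP count was 0 without centring, 0 when genes above the median level were centred and 1 after quantile normalization. That was 0%, 0% and 3.85% of the list, against 17.2%, 13.4% and 24.1% of all tested genes. The list's medians under these scalings were -0.37, -0.50 and -0.11 in the same order. In the PRC1.1 complex Pcgf1 was at 7.88, 8.97 and 6.57 FPKM in LSK and 9.71, 10.8 and 5.25 FPKM in MEP, Kdm2b at 24.0, 24.5 and 24.9 FPKM in LSK and 29.1, 26.4 and 30.7 FPKM in MEP and Rnf2 (Ring1B) at 36.01, 31.1 and 32.0 FPKM in LSK and 22.1, 17.5 and 24.1 FPKM in MEP, and none of the 3 was called. Bcorl1, Rybp and Yaf2 were not called either. Usp7, the deubiquitinase of the complex, and Ring1, the paralog of Rnf2, were higher in MEP, at 0.73 and 0.62, and neither was called without centring. Ring1 was also not called without replicate 1 (0.53). The chromobox genes Cbx2, Cbx7 and Cbx8, whose products bind methylated histone H3 in canonical PRC1, were higher in LSK, at log2 differences of -1.30, -1.32 and -1.12. Cbx7, the chromobox of stem cells, was at 12.9, 12.9 and 15.7 FPKM in LSK and 4.16, 4.21 and 4.57 FPKM in MEP. Ezh1 and Ezh2, the paired catalytic subunits of PRC2, moved in opposite directions, at -0.70 and 0.68, and Ezh2 was not called under the other scalings. Bcl6, the repressor that recruits Bcor, was at 4.05, 4.07 and 3.88 FPKM in LSK and 1.65, 1.52 and 1.18 FPKM in MEP (log2 difference -0.88, standard error 0.15, adjusted p = 0.00326).

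**Figure D5:**
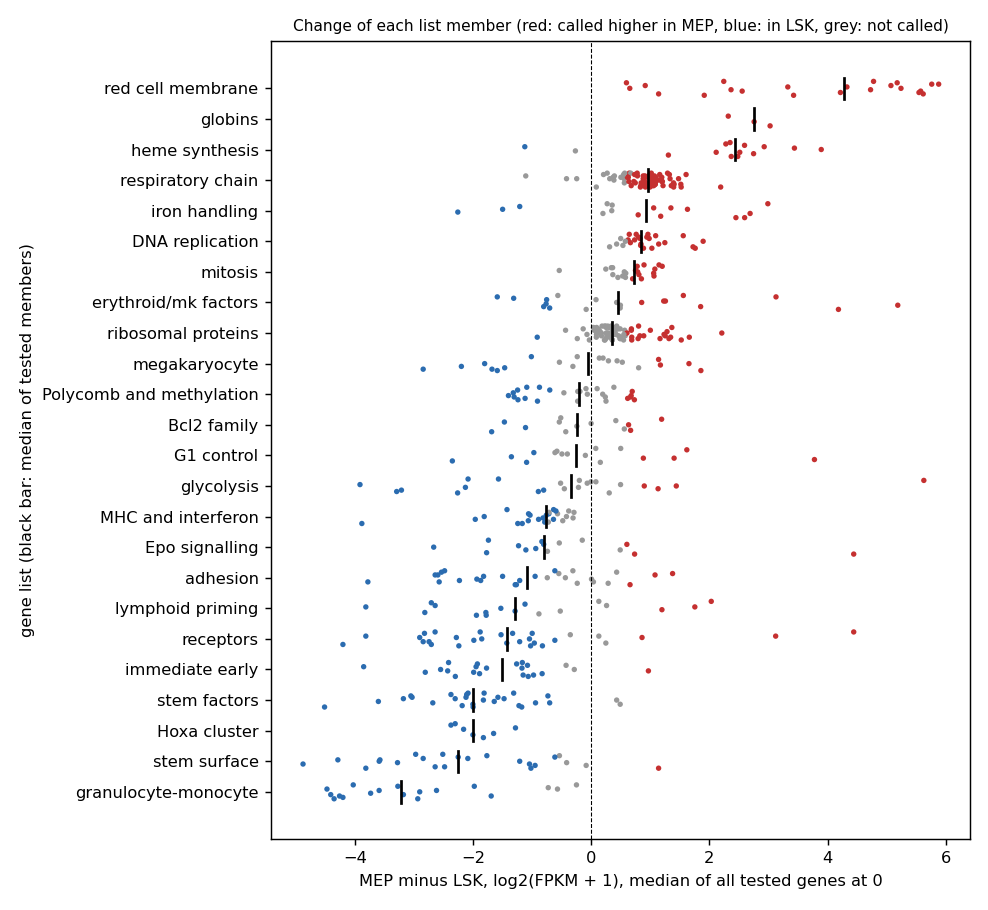
Each point is 1 tested member of the list named on the y axis, and the x axis gives MEP minus LSK on the log2(FPKM + 1) scale with the median of all tested genes at 0. Red points were called higher in MEP, blue points higher in LSK and grey points were not called, and the black bars mark medians, from 4.27 for red cell membrane genes to -3.23 for granulocyte-monocyte genes.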

How the data were processed

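LSK and MEP libraries of WT animals were matched by the mouse that their labels name. FPKM were deposited as a table for LSK and another for MEP, 10 libraries in each, and the submitters' processing notes name STAR (2.5.1b), SAMtools (1.9), Cufflinks (2.2.1) and mm9. Their roles and the annotation are not given in the sources used here. The FPKM were used as deposited, and every column matched a sample. Values were taken as log2(FPKM + 1), with a pseudocount of 1, for genes whose mean over the 6 libraries was 1 FPKM or more. MEP minus LSK was computed within each mouse, centred on its median over tested genes (-0.16, -0.15 and -0.17 before centring) and tested by limma (3.58.1, R 4.3.3) with a mean-variance trend and Benjamini-Hochberg adjustment. Genes were called at an adjusted p under 0.05 with more than a 1.5-fold change. This fold is that of the study's methods, which name no test. Whether RNA was extracted and libraries were made in separate batches is not given. Deviations of LSK and MEP from their group means correlated by 0.098, 0.098 and 0.08 in mice 1, 2 and 3, and the pairing rests on the shared animal. The fit was also run on simulated data, and no result is drawn from that here. Alternatives covered the pseudocount (0.1), the filter (none, or 5 FPKM), the centring, quantile normalization, the block, the trend, the adjustment, a fold of 2, leaving out each replicate, and a fit of all 4 genotypes. Named genes were the deleted genes, Gata1 and Gata2, the 12 largest changes in each direction among called genes with no overlap of libraries (genes of the sort gates left out), up to 5 members with the largest change in each list, and members whose role completes the account. Some genes that this rule names are not reported here. The lists were written from textbook knowledge, and the comparison, lists and settings were chosen with earlier results of these data known. A list is described by its counts and median, with no test over its members. Symbols are those of the files. Promoters came from RefSeq (GRCm38.p6), and no coordinates of the files' own build are given.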

Additional observations from a re-analysis of the deposited data

How the results depend on the processing

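The comparison was repeated under 14 alternatives. Against 5770 calls, a fold change above 2 left 3382 (1187 of them higher in MEP), a minimum of 5 FPKM, with fewer genes tested, gave 4198, and the others gave 5313 to 6036. Centring on the genes above the median level left 1524 genes higher in MEP, against 2589, as it moved the median gene to -0.29 on the log2 scale. Leaving out replicates in turn gave 5512 to 5883 calls, 2455 to 2711 of them higher in MEP and 2990 to 3172 higher in LSK. LSK and MEP of a mouse were paired in the fit, and with no replicate block 5740 genes were called, 5713 of them among the 5770. No gene called here was called in the opposite direction under any alternative. Of the 247 tested genes that are named, 211 were called, 44 of these lost the call under 1 or more alternatives, and 234 kept their direction throughout. Quantile normalization lost the calls of Bcl6, Ccnd3, Cdkn1c, Ezh1, Hoxb4, Mx1, Nfkbia, Tek and Tet2, and, together with centring on the genes above the median level, those of Fth1, Ifngr1, Ldb1 and Mcm7. The fit of all 4 genotypes lost those of Bst2, Epb4.1 and Hbb-b1. None of the genes that changed sign was called here. Dnmt1 was at -0.23 after quantile normalization and -0.0941 with genes above the median level centred, and Pcgf1 at -0.0498 in the latter. Quantile normalization put Gapdh at 0.61, Itgb3 at 0.27, Slamf1 at 0.57, Bcorl1 at 0.32, Rybp at 0.31 and Yaf2 at 0.14. Sox6 was at -0.0781 with no centring and -0.21 with genes above the median level centred. With 1 replicate left out, Sox6 lay between -0.12 and 0.25, Gapdh between -0.20 and 0.11, H2-Aa between -0.70 and 0.10, H2-Ab1 between -0.71 and 0.0124, Itga2b between -0.72 and 0.33, Itgb3 between -0.67 and 0.36, Ly86 between -0.95 and 0.10, Rybp between -0.25 and 0.0175 and Slamf1 between -0.31 and 0.26. With 3 mice an exact permutation test over pairs cannot give a p below 0.25, so the calls rest on the spread that limma pools across genes. Values under about 1 FPKM rest on few fragments, and how many is unknown.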

Other observations

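Adhesion genes were mostly lower in MEP. Of 28 tested members of a list of integrins, selectins, junction proteins and tetraspanins 16 were higher in LSK (57.1%, against 28.0% of all tested genes) and 3 in MEP (10.7%, against 22.8%), with a median log2 difference of -1.08, and 18 to 19 were higher in LSK under the other scalings. Cd53, a tetraspanin of leukocytes, was at 76.9, 75.4 and 62.6 FPKM in LSK and 8.54, 8.43 and 12.7 FPKM in MEP (log2 difference -2.60, standard error 0.18, adjusted p = 0.000245). Icam1 was at 31.4, 25.8 and 23.9 FPKM in LSK and 3.83, 2.30 and 4.02 FPKM in MEP (log2 difference -2.53, standard error 0.16, adjusted p = 0.000208). Itgam (CD11b) was at 17.5, 27.8 and 13.4 FPKM in LSK and 1.96, 1.21 and 2.99 FPKM in MEP (log2 difference -2.57, standard error 0.35, adjusted p = 0.00151). Pecam1 (CD31) was at 59.0, 46.6 and 43.7 FPKM in LSK and 8.94, 5.80 and 12.1 FPKM in MEP (log2 difference -2.23, standard error 0.21, adjusted p = 0.000478). The members higher in MEP were Itga4 and Itga5, the fibronectin receptor chains of erythroid progenitors, and the tetraspanin Cd82, at log2 differences of 0.66, 1.08 and 1.38, where Itga4 was not called under the other scalings.

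In the Bcl2 family 13 of 18 members were tested, and 3 were higher in MEP and 3 in LSK (23.1% each, near the 22.8% and 28.0% of all tested genes). Bcl2 was at 19.98, 21.5 and 22.5 FPKM in LSK and 5.69, 2.81 and 8.40 FPKM in MEP (log2 difference -1.69, standard error 0.25, adjusted p = 0.00209). Mcl1, the survival factor of stem cells, was at 213, 146 and 156 FPKM in LSK and 70.7, 62.3 and 76.8 FPKM in MEP (log2 difference -1.11, standard error 0.12, adjusted p = 0.000687), while the effector Bax was at 42.4, 45.8 and 46.7 FPKM in LSK and 85.7, 114 and 82.4 FPKM in MEP (log2 difference 1.19, standard error 0.10, adjusted p = 0.000389). Bak1 and Bad were higher in MEP by 0.63 and 0.67 on the log2 scale, and both calls were lost under each other scaling and without replicate 1 (0.58 and 0.54). The median of the list was -0.24, and 0.16 after quantile normalization. Zbtb46, a factor of dendritic cells, was chosen after its values were seen as the member of the marker lists with the largest rise in MEP, at 1.40, 2.09 and 1.32 FPKM in LSK and 20.9, 21.3 and 16.5 FPKM in MEP (log2 difference 3.14, standard error 0.13, adjusted p = 0.000128). In the dendritic cell list, 2 of 8 tested markers were higher in MEP and 3 in LSK (25.0% and 37.5%, near the 22.8% and 28.0% of all tested genes), the latter being Flt3, Siglech and Bst2 at log2 differences of -3.81, -1.41 and -0.82. The call of Siglech was lost without replicates 2 and 3 in turn (-0.67 and -1.70). Without replicate 1 the MEP count of this list was 1 of 8 (12.5%, against 22.2% of all tested genes).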
